A study of Drosophila melanogaster with 9 samples.

Results

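The actin gene family of *Drosophila melanogaster* was followed in S2 cells, a cultured fly cell line, by RNA-Seq. The family was taken as the rows named *Act5C*, *Act42A*, *Act57B*, *Act79B*, *Act87E* and *Act88F*, which are 6 of the 13937 genes in the deposited table. Every library came from cells kept without serum for 16 h. For 1 h the cells then received either the HCl solvent alone (control), DILP2 at 100 nM or DILP5 at 100 nM. Each condition has 3 libraries, which are named replicate A, B and C. DILP2 was a synthetic peptide and DILP5 a recombinant one, and both are insulin-like peptides of the fly that act through the receptor InR. The sources do not say whether the 3 libraries of a condition came from separate cultures, so p-values measure the spread between these libraries, which may be technical.

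Actin is the protein of the thin filaments that shape cells and move them, and in muscle it is the track along which myosin pulls. Filaments grow from monomers, and the pool of free monomers is sensed by a cofactor of the transcription factor SRF, which in animals drives many cytoskeletal genes. In the fly, *Act5C* and *Act42A* encode the cytoplasmic actins of most cells. *Act57B* and *Act87E* are known for larval and adult body muscles, *Act79B* for tubular muscles such as those of the leg, and *Act88F* for the indirect flight muscle. Each of the 6 genes has a coding length of 1131 bases in the BDGP6 annotation, for a protein of 376 residues, and the proteins are close to identical. Their non-coding exonic parts differ in length, from 464 bases in *Act88F* to 1847 bases in *Act5C*.

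The counts summed to between 28365854 and 38557706 per library. Values are given as CPM, counts scaled to a common library total with the TMM method of edgeR, with means ± SD over 3 libraries. All 6 actins passed the filter of edgeR on low counts, as did 8981 genes in all. The cells were checked against their lineage, with mixed results. Of 14 hemocyte (blood cell) markers measured, 5 had at most 10 counts in every library, among them *NimC1* and *He*. *Hml* had from 71 to 157 counts and *eater* from 66 to 162, while *Pvr*, *srp*, *ush* and *crq* had at least 9004. Of 20 sarcomere markers, 11 had at most 10 counts in every library, among them the troponin genes *up* and *wupA*, the myosin light chain gene *Mlc1* and *fln*. *Mhc*, the muscle myosin heavy chain gene, had from 20 to 31 counts. Other genes of the list were expressed, with 1074 to 1517 counts of the titin-like *sls*, 1195 to 1700 of the transcription factor gene *Mef2* and 965 to 1425 of *Strn-Mlck*. RNA of a whole culture was measured, so a change in the number of cells that express a gene and a change in RNA per cell cannot be told apart.

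The cytoplasmic actins made up nearly all actin RNA. *Act5C* (FBgn0000042, chromosome X) had 5564, 5064 and 5589 CPM in control replicates A, B and C, or 5406 ± 296 CPM (SD, n = 3), and ranked 7 among the 8981 genes tested. *Act42A* (FBgn0000043, arm 2R) had 3453, 3548 and 3696 CPM in the same libraries, or 3566 ± 122 CPM (SD, n = 3), and ranked 14. The 2 genes held from 96.4% to 96.8% of the actin counts in the 9 libraries. The 6 actins together held from 0.917% to 1.04% of all counts.

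The order of the 2 cytoplasmic actins depended on the length used. By counts, *Act5C* was above *Act42A* in 9 of 9 libraries, by 1.43 to 1.66 times. Per kilobase of exonic length, with all annotated exons joined (2978 bases for *Act5C*, which has 5 annotated transcripts, and 1626 bases for *Act42A*), *Act42A* was above *Act5C* in 9 of 9 libraries. The control means on that scale were 1815 ± 99.4 CPM per kb for *Act5C* and 2193 ± 75.3 CPM per kb for *Act42A* (SD, n = 3). Per kilobase of coding length they were 4780 ± 262 and 3153 ± 108 CPM per kb (SD, n = 3), and *Act5C* was again higher. The other 4 members kept 1 order on each of these scales in 9 of 9 libraries, which was *Act87E*, *Act57B*, *Act88F* and *Act79B* from high to low.

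The muscle actins were unequal. *Act87E* (FBgn0000046, arm 3R) had 259, 239 and 268 CPM in control replicates A, B and C, and ranked 824 among the genes tested. *Act57B* (FBgn0000044, arm 2R) had 62.7, 60.7 and 63.6 CPM there, above the median of 30.1 CPM over all genes tested. *Act88F* (FBgn0000047, arm 3R) was low, with 1.76, 1.65 and 1.69 CPM from 63, 48 and 58 counts. *Act79B* (FBgn0000045, arm 3L) was the lowest, with 0.754, 0.754 and 1.08 CPM from 27, 22 and 37 counts. Over the 9 libraries *Act87E* had 12.6 to 14.9 times fewer counts than *Act42A*, *Act57B* had 3.40 to 4.27 times fewer than *Act87E*, and *Act88F* had 32.1 to 45.5 times fewer than *Act57B*. These ranges do not include 1, and neither does that of *Act88F* over *Act79B*, from 1.53 to 2.33 times. For this last pair the 95% Poisson intervals of the counts in control replicate C, from 44.0 to 75.0 for *Act88F* and from 26.1 to 51.0 for *Act79B*, overlapped. Such intervals cover counting error only.

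**Figure D1:**
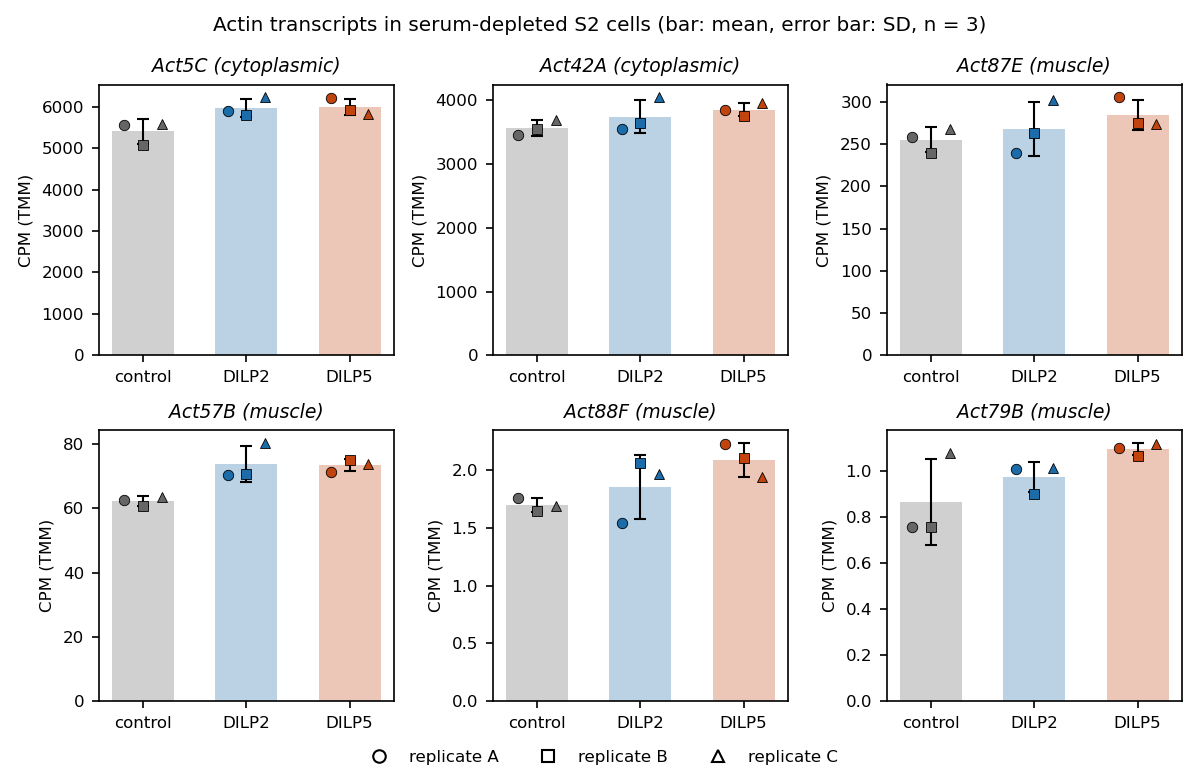
CPM of the 6 actin genes (vertical axes, linear and starting at 0) in control, DILP2 and DILP5 libraries, with 1 symbol per library, bars for means and error bars for the SD of 3 libraries. *Act57B* lies between 60.7 and 63.6 CPM in the control and between 70.3 and 80.2 CPM in the 6 DILP libraries, while the groups of *Act79B* overlap.

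Reads of 50 bases can match more than 1 actin gene, because the coding sequences are alike, and how such reads were counted is not given in the sources used here. The counts of the other 5 members are therefore also given relative to those of *Act5C*, each with Poisson intervals, which are narrower the more counts a gene has. *Act42A* had 6021 to 7006 counts per 10000 *Act5C* counts, and 9 of 9 intervals missed the pooled ratio of 6429. *Act79B* had 1.35 to 1.93 counts per 10000 *Act5C* counts, and the 95% Poisson interval of 9 of 9 libraries held the ratio of the pooled libraries, 1.69. *Act88F* had 2.62 to 3.58 per 10000, and 9 of 9 intervals held the pooled ratio of 3.26. At this depth the counts of these 2 genes could not be told apart from a fixed share of those of *Act5C*. For *Act57B* the ratio ran from 113 to 129 per 10000, and 6 of 9 intervals missed the pooled ratio of 121. For *Act87E* it ran from 405 in DILP2 replicate A to 491 in DILP5 replicate A, and 5 of 9 intervals missed the pooled ratio of 466. How many intervals miss thus follows the depth of the gene as well as the spread between libraries, and sets no member apart. Whether a part of a member's counts came from other members was not tested.

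Other genes also lie over the actins in the annotation. The exons of *Act57B* share 96 bases with a small nucleolar RNA gene on the same strand, and those of *Act87E* share 60 bases with a long non-coding RNA gene on the opposite strand. The strand setting of the counting is not given in the sources used here, so reads there cannot be assigned. The exons of the other 4 members overlap no other annotated gene.

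**Figure D2:**
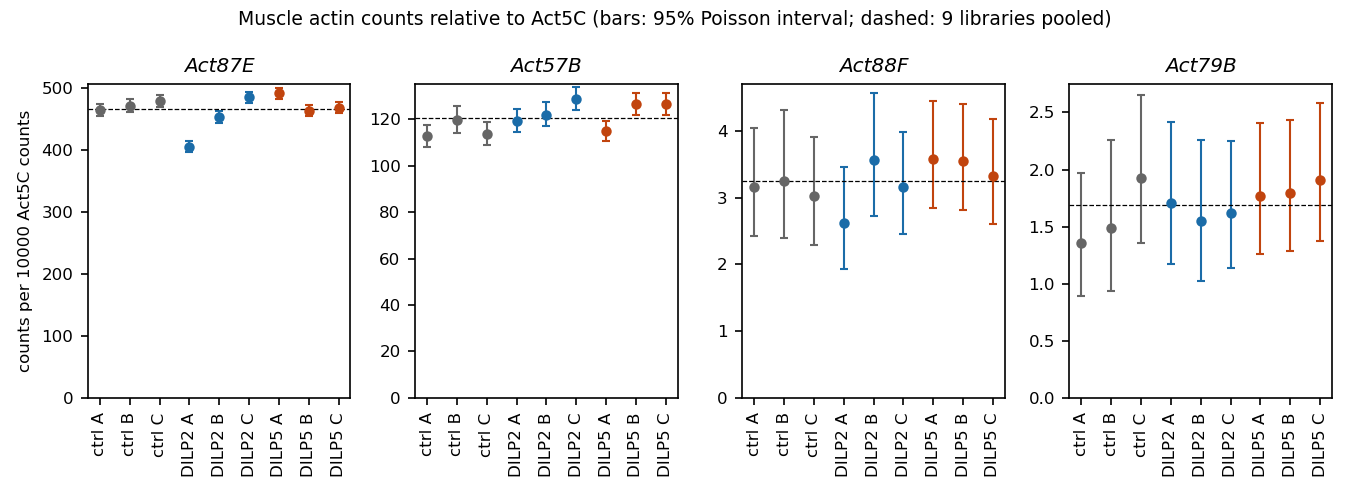
Counts of the 4 muscle actins per 10000 *Act5C* counts (vertical axes, starting at 0) in each of the 9 libraries, with 95% Poisson intervals and a dashed line for the pooled libraries. The intervals of *Act88F* and *Act79B* hold the line in 9 of 9 libraries, and *Act87E* is lowest in DILP2 replicate A, at 405.

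Each DILP was compared with the control in 1 edgeR model of the 9 libraries (quasi-likelihood test, Benjamini-Hochberg adjustment over the 8981 genes). A gene is named called where its adjusted p was below 0.05. With each DILP 1 of the 6 actins was called, *Act57B*, and it was higher. Over all genes tested 10.9% were called with DILP2 and 13.1% with DILP5. The higher calls alone were 5.33% and 6.28%, and the lower ones, to which the actins added 0, were 5.59% and 6.78%. An unadjusted p under 0.05 was found for 2 actins with each DILP, *Act5C* and *Act57B*, and for 25.2% and 27.5% of all genes tested. With scaling by library size only, 28.3% of all called genes were higher with DILP2 and 30.0% with DILP5, against 48.8% and 48.1% here. The 6 actins had log2 fold changes above 0 in both comparisons under each of the scalings tried, as had 49.3% and 49.5% of all genes tested in the fit given here. Their median was 0.14 with DILP2 and 0.20 with DILP5, beside -0.0022 and -0.0019 over all genes tested. The DILP5 median takes in the 2 low members, *Act79B* at 0.34 and *Act88F* at 0.30 (standard errors 0.20 and 0.15), which were not called. Summed to 1 row, the 6 gave 0.12 and 0.14. The DILP libraries did not overlap with the control and were higher for 2 actins with DILP2 and for 5 with DILP5, where 14.3% and 16.2% of all genes tested were so placed. Both comparisons use the same 3 control libraries.

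*Act57B* rose with both DILPs, and was the 1 actin called. It had 70.3, 70.8 and 80.2 CPM with DILP2 in replicates A, B and C. With DILP5 it had 71.4, 74.9 and 73.8 CPM. The 6 values lay above the 3 of the control, the highest of which was 63.6 CPM. The log2 fold change was 0.24 with DILP2 (standard error 0.053, adjusted p = 0.0144) and 0.24 with DILP5 (standard error 0.053, adjusted p = 0.0143), or 1.18-fold in each case, by edgeR's quasi-likelihood test. With 1 library left out the call was kept in 8 of 9 fits with DILP2 and in 7 of 9 with DILP5. Leaving out control replicate B gave 0.23 with an adjusted p of 0.0521 for DILP2, and 0.22 with 0.0523 for DILP5 (edgeR). Leaving out DILP5 replicate B gave 0.22 with 0.0574 for DILP5. Of 9 sarcomere markers tested, 0 were called with either DILP by edgeR or DESeq2 (1 and 1 at an unadjusted p under 0.05 by edgeR). Over all genes tested edgeR called 10.9% with DILP2 and 13.1% with DILP5. Standard errors with DILP2 were 0.21 for *Mhc*, 0.19 for *Mlc2* and 0.30 for *Mlp84B*, against 0.067 for *Mef2* and 0.071 for *sls*. A change of the size of that of *Act57B* was thus not detectable in the markers with few counts. Scaled by library size only, the 20 summed to 130 to 136 CPM in the control, 121 to 124 with DILP2 and 112 to 124 with DILP5. Most of that sum came from *Mef2*, *sls* and *Strn-Mlck* (control means of 45.4, 40.8 and 37.0 CPM by TMM). That scaling put the median log2 fold change of all genes tested at -0.039 and -0.036, so the sum is not on the scale of the *Act57B* values. Relative to *Act5C*, *Act57B* had 113, 120 and 114 counts per 10000 in the control, 119, 122 and 129 with DILP2, and 115, 126 and 127 with DILP5. These groups overlapped, and a change of *Act57B* beyond that of *Act5C* was not detectable (log2 ratio higher by 0.096 with DILP2 and by 0.087 with DILP5, exact two-sided permutation test, p = 0.2 for each, adjusted p = 0.75 over 15 ratio tests, where 3 libraries against 3 cannot go below 0.1).

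*Act5C*, the most abundant actin, did not pass the threshold in the main fit, which has no block. It had 5894, 5798 and 6222 CPM with DILP2, and 6211, 5925 and 5833 CPM with DILP5. These 6 values lay above the highest control, 5589 CPM. The log2 fold change was 0.14 with DILP2 (standard error 0.054, adjusted p = 0.119) and 0.15 with DILP5 (standard error 0.054, adjusted p = 0.0988) by edgeR's quasi-likelihood test, with 95% intervals from 1.02-fold to 1.20-fold in both comparisons. With DESeq2 the adjusted p was 0.0424 and 0.0310, past the threshold. With the replicate letters as a block it was 0.0257 and 0.0197 by edgeR, also past it.

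*Act42A*, the other cytoplasmic actin, had 3549, 3647 and 4048 CPM with DILP2, which overlapped with the control. With DILP5 it had 3852, 3754 and 3960 CPM, all above the highest control of 3696 CPM. With DILP2 the log2 fold change of *Act42A* was 0.072 ± 0.056 (SE), with an adjusted p of 0.470 by edgeR. With DILP5 it was 0.11 ± 0.056 (SE), with an adjusted p of 0.223 by edgeR. The DILP2 value was 0.013 without DILP2 replicate C and 0.11 without DILP2 replicate A. Their 95% intervals ran from 0.965-fold to 1.14-fold with DILP2 and from 0.993-fold to 1.18-fold with DILP5. A change of the size of that of *Act57B* was thus at the upper bound of the DILP5 interval.

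Among the 4 abundant actins *Act87E* had the widest spread within each condition, with coefficients of variation of 5.74% (control), 11.9% (DILP2) and 6.34% (DILP5). It had 239, 263 and 302 CPM with DILP2, a range that took in all 3 controls. With DILP5 it had 305, 275 and 273 CPM, above the control. The log2 fold change was 0.070 ± 0.079 (SE) with DILP2, at an adjusted p of 0.641 by edgeR, and 0.16 ± 0.079 (SE) with DILP5, at an adjusted p of 0.231. Without DILP2 replicate C the log2 fold change with DILP2 was -0.025.

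The 2 low actins had wide errors. *Act88F* had 1.54, 2.06 and 1.96 CPM with DILP2 and 2.23, 2.10 and 1.94 CPM with DILP5, and the DILP5 libraries lay above the control. Its log2 fold change with DILP5 was 0.30 (standard error 0.15, adjusted p = 0.236 by the edgeR test). *Act79B* had 1.01, 0.899 and 1.01 CPM with DILP2 and 1.10, 1.06 and 1.11 CPM with DILP5. Control replicate C, with 1.08 CPM, lay within the range of the DILP5 libraries. The log2 fold change with DILP5 was 0.34, with a 95% interval from 0.938-fold to 1.70-fold (adjusted p = 0.303 by the edgeR test), and it was 0.54 without control replicate C. Counts of 22 to 42 per library set these errors, so a difference of the size seen for *Act57B* was not detectable in *Act79B*.

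**Figure D3:**
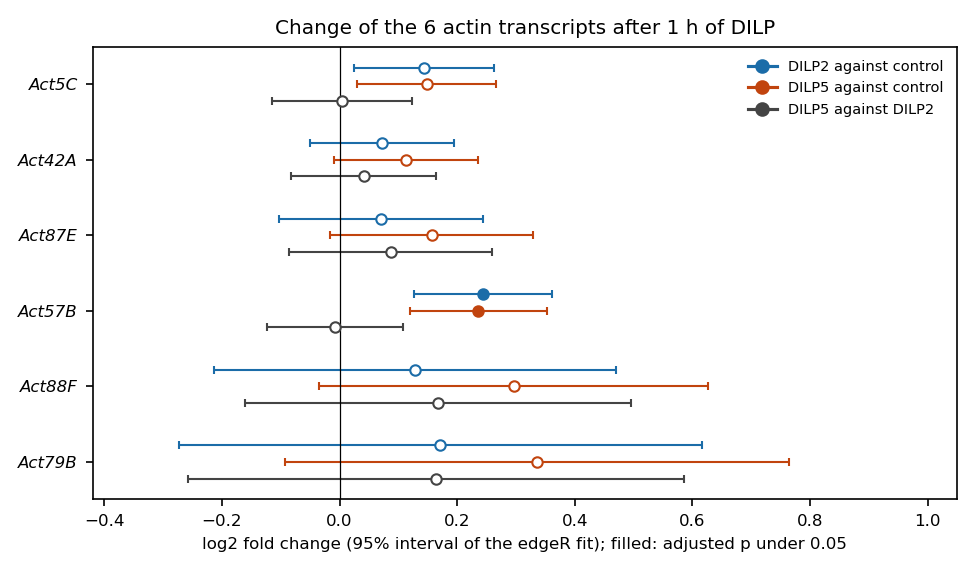
Log2 fold change of the 6 actin genes (horizontal axis) in the 3 comparisons, with 95% intervals from the edgeR fit of the 9 libraries, and filled symbols where the adjusted p is under 0.05. The symbols of *Act57B* against control are the only filled ones, at 0.24 with each DILP, and the intervals are widest for *Act79B* and *Act88F*.

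DILP2 and DILP5, 2 ligands of 1 receptor, were compared directly at the same dose and time in the same fit. Of the 6 actins 0 were called, as were 0 of the 8981 genes tested (0%), while 208 genes (2.32%) and 0 actins had an unadjusted p under 0.05 by edgeR. DESeq2 also called 0 genes. For *Act5C* the log2 difference was 0.0044, and the 95% interval of the ratio of DILP5 to DILP2 ran from 0.924 to 1.09. The intervals were from 0.945 to 1.12 for *Act42A* and from 0.918 to 1.08 for *Act57B*. For *Act87E* the interval was from 0.942 to 1.20. The low actins leave more room, from 0.895 to 1.41 for *Act88F* and from 0.837 to 1.501 for *Act79B*. The 3 DILP5 libraries of *Act79B* lay above the 3 of DILP2, as did those of 3.05% of all genes tested. The adjusted p of the 6 was 0.9998 (edgeR's quasi-likelihood test).

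The RNAs of proteins that nucleate, extend and turn over filaments were taken list by list. Over all genes tested 10.9% were called with DILP2 and 13.1% with DILP5. Of 16 genes of the Arp2/3 complex, which starts branched filaments, and its activators, 1 was called higher with DILP2 and 3 with DILP5, and 0 were called lower, beside 5.33% and 6.28% of all genes tested that were called higher. *Arpc4*, a subunit, had log2 fold changes of 0.16 and 0.14 (adjusted p = 0.0202 and 0.0354 by edgeR's quasi-likelihood test). *Arpc2*, another subunit, and *SCAR*, an activator, were called with DILP5, at 0.17 and 0.14. With DILP2 they had 0.10 and 0.098, and the difference between the DILPs was not called for either. The median of the list was 0.055 with DILP2 and 0.070 with DILP5.

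Actin-related proteins share the fold of actin, and some belong to the Arp2/3 or dynactin complex and others to chromatin remodellers. Of 8 tested, 1 was called higher with DILP2 and 2 with DILP5, beside the same 5.33% and 6.28% of all genes. *Arp1*, of dynactin, had log2 fold changes of 0.16 and 0.17 (adjusted p = 0.0464 and 0.0338 by edgeR's test), and *Arp3*, of the Arp2/3 complex, had 0.12 and 0.14 (adjusted p = 0.0730 and 0.0338). The median was 0.10 with DILP2 and 0.0998 with DILP5. *Arp53D*, a testis gene, had at most 1 count in any library.

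Formins extend unbranched filaments. Of 6 formin genes 3 were called lower with DILP2 and 4 with DILP5, as were 5.59% and 6.78% of all genes tested. Of the 10 genes in the list of formins and other elongation or nucleation factors, 3 were called lower with DILP2 and 4 with DILP5. *dia* (Diaphanous) had log2 fold changes of -0.31 and -0.35 (adjusted p = 0.00700 and 0.00303 by edgeR's test), and the formin *Fhos* had -0.29 and -0.33. *capu* (Cappuccino) had -0.19 and -0.18. The formins *Frl* (-0.044 and -0.083) and *DAAM* (-0.077 and 0.020) were not called. *form3* was called with DILP5, at -0.46, and had -0.28 with DILP2 (adjusted p = 0.171). In the same list 1 gene was called higher with each DILP. It was *Cortactin*, which steadies Arp2/3 branches, at 0.15 and 0.18, and it is named here after its values were seen. The median was -0.094 with DILP2 and -0.098 with DILP5.

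Of 13 genes of monomer supply and filament turnover, 1 was called, and it was lower, beside 5.59% and 6.78% of all genes tested that were called lower. *LIMK1*, a kinase that inhibits cofilin, had log2 fold changes of -0.30 and -0.31 (adjusted p = 5.78e-04 and 3.97e-04 by edgeR's test). *chic*, the gene of profilin, had 0.0096 and 0.031, and *tsr*, the gene of cofilin, had 0.13 and 0.11, and neither was called. *bs*, the fly SRF gene, had -4.5e-04 and -0.0045. *Mrtf*, its actin-sensing cofactor, had -0.28 with DILP2 (adjusted p = 0.0896) and was called lower with DILP5, at -0.36 (adjusted p = 0.0330). Of 15 genes of myosin II, tropomyosin and crosslinkers, 0 were called with either DILP by edgeR or DESeq2, and 0 and 1 had an unadjusted p under 0.05 by edgeR. Over all genes tested edgeR called 10.9% and 13.1%, and 25.2% and 27.5% had such an unadjusted p.

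Tubulins, the other large cytoskeletal family with near-identical copies, were the closest comparison. Of 8 tested, 0 were called with DILP2 (3 at an unadjusted p under 0.05 by edgeR, 2 called by DESeq2) and 1 with DILP5, *betaTub60D*, at 0.14 (adjusted p = 0.0337). Over all genes tested edgeR called 10.9% with DILP2 and 13.1% with DILP5, and 25.2% and 27.5% had an unadjusted p under 0.05. DESeq2 called 1108 and 1289 of the 8981. All 8 tubulins had log2 fold changes above 0 with each DILP, as had the 6 actins and 49.3% and 49.5% of all genes tested. For *gammaTub23C* they were 0.012 and 9.7e-04 (standard error 0.046 for each), so its direction is not resolved. *alphaTub67C* had from 22 to 48 counts and *gammaTub37C* from 8 to 20, with standard errors of 0.25 and 0.34 with DILP2, so their directions are not resolved either. The tubulin medians were 0.10 with DILP2 and 0.11 with DILP5, against 0.14 and 0.20 for the actins. Both families count members with few reads in these medians. Genes commonly used to normalize RNA levels, *Act5C* and *RpL32* (RP49) among them, gave 0 calls of 10 with either DILP. In that list 2 genes with DILP2 and 5 with DILP5 had an unadjusted p under 0.05 by edgeR, and DESeq2 called 2 and 4. The values over all genes tested are those given beside the tubulins. The next genes are named after their values were seen, and none was called. *RpL32* had log2 fold changes of 0.13 and 0.19, and *alphaTub84B* had 0.13 and 0.14, near the 0.14 and 0.15 of *Act5C*. *Tbp* had -0.0065 and 0.059, and *SdhA* had -0.0029 and -0.015. The median over the 10 reference genes, *Act5C* and *alphaTub84B* among them, was 0.089 with DILP2 and 0.12 with DILP5.

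**Figure D4:**
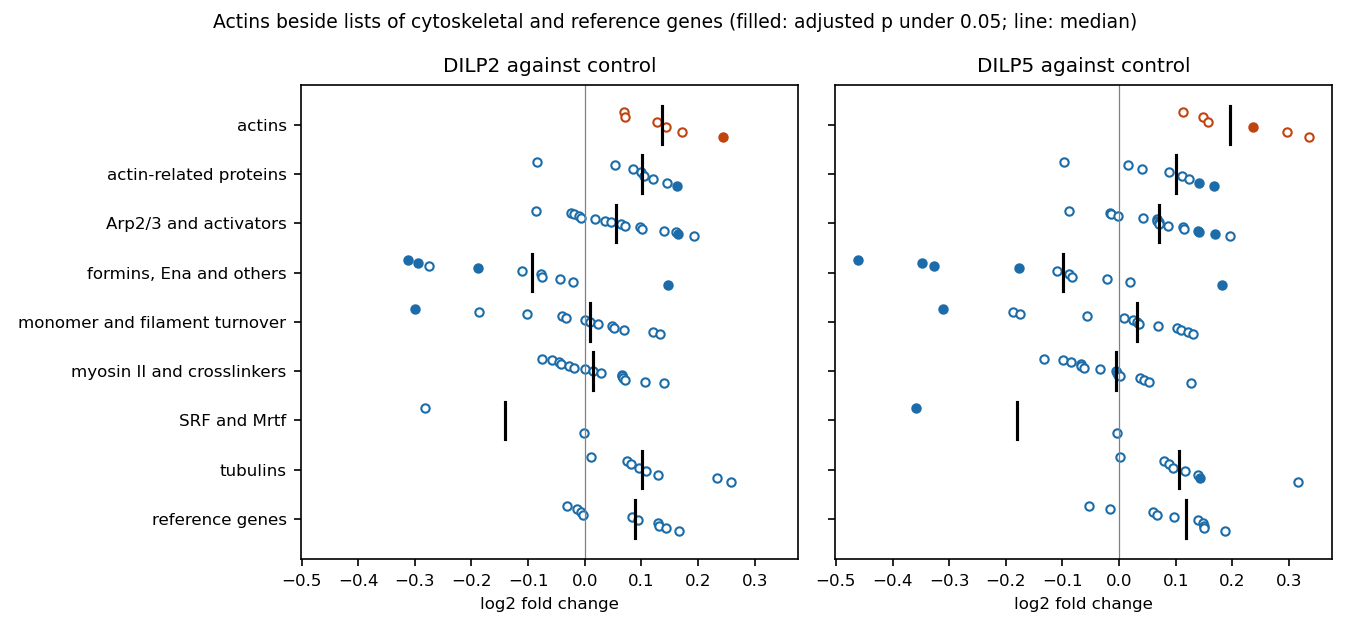
Log2 fold change (horizontal axis) of the actins and of the tested members of 8 lists, 1 point per gene, for each DILP against control, with black lines for medians and filled points where the adjusted p is under 0.05. The 6 actins and the 8 tubulins lie above 0 in both panels, *gammaTub23C* by 0.012 and 9.7e-04. The formin list has its called genes mainly on the left, with medians of -0.094 and -0.098.

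The genes most like the cytoplasmic actins over the 9 libraries were found by the correlation of log2 CPM with all other genes tested. The libraries share depth and handling, and the best of 8980 genes are picked, so high values are a description. For *Act5C* they were *CG42507*, *CG11123* and *Trl*, the gene of the GAGA factor, each with a Pearson r of 0.95 and with a Spearman rho of 0.93, 0.98 and 0.93. For *Act42A* they were *Gdh*, the gene of glutamate dehydrogenase, with r = 0.97, the small heat shock gene *Hsp27* with r = 0.96, and *betaTub56D*, a widely expressed tubulin, with r = 0.96 (rho of 0.92, 0.98 and 0.95). The 3 genes like *Act5C* were called higher with both DILPs, and the 3 like *Act42A* with neither, beside 5.33% and 6.28% of all genes tested. Differences between the conditions were left in the correlation, so these calls follow in part from how the genes were picked. Between *Act5C* and *Act42A* themselves r was 0.66 (rho 0.78). Among the 15 pairs of actins r ran from 0.40, for *Act79B* and *Act88F*, to 0.86, for *Act5C* and *Act57B*.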

How the data were processed

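Single-end reads of 50 bases were aligned by the authors to the dm3 assembly (Tophat, Bowtie), and raw counts per gene from easyRNASeq were deposited, without normalization and with the replicates of each condition kept apart. Versions, annotation release, strand setting and the handling of reads with several matches are not given in the sources used here. Counts of 9 libraries were fitted together, without a block, with edgeR 4.0.16 in R 4.3.3 (default filter, 8981 genes, TMM, quasi-likelihood test, threshold 0.05). The standard error of a log2 fold change was its size divided by the square root of F. limma 3.58.1 was loaded by edgeR. Alternatives were DESeq2 1.42.0, the likelihood ratio test, other scalings and filters, own 6 libraries, the replicate block, thinned counts, removal of a length trend and each library left out. The test was checked on simulated data. Lengths, overlaps and chromosome arms came from the BDGP6 annotation (Ensembl release 115), which held 13389 of the 13937 genes and is not the authors' build. Genes are given by current symbols, and several were deposited under older names. Of the list genes, *PPO1* was not found. The members and lists were chosen with earlier results of these data known. Named were, whatever their values, *chic*, *tsr*, *bs* and *Mrtf*, and from each list up to 4 called genes of the largest mean change, and for *Act5C* and *Act42A* the 3 best correlated genes. Gene sequences were not used here. Figures were drawn with matplotlib 3.10.9.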

Additional observations from a re-analysis of the deposited data

How the results depend on the processing

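Of 19 alternatives per result, *Act57B* stayed called in 18 with DILP2 and in 17 with DILP5. *Act5C*, not called in the main fit, was called in 2 of 19 with each DILP. Leaving out 1 library each gave log2 fold changes of *Act57B* from 0.18 to 0.28 and from 0.22 to 0.26, and of *Act5C* from 0.099 to 0.17 and from 0.10 to 0.18. With the replicate block (the letters as pairs) *Act5C* was called with both DILPs (0.14 and 0.15, adjusted p = 0.0257 and 0.0197 by edgeR) and *Act42A* with DILP5 (0.11, adjusted p = 0.0427), so 2 and 3 actins were called. 6 of 9 same-letter pairs of libraries had deviations correlated above 0.1, from -0.035 to 0.35 in all (from -0.29 to 0.19 for pairs of different letters). Pairs of letter A had 0.14 to 0.16, those of C 0.29 to 0.35 and those of B -0.035 to 0.097. A library matched its own letter best in 11 of 18 cases. The study names no pairing of the letters, so the main fit has no block. Whether the letters mark shared handling is not known. DESeq2 called *Act5C* with both DILPs (0.15 for each), and thus 2 actins with each, beside 1108 and 1289 of the 8981 genes. Leaving out 1 library left from 0 to 1 actins called with each DILP, and it was 0 without control replicate B with both DILPs and without DILP5 replicate B with DILP5. The genes called over all numbered 1781 with DILP2 and 2068 with DILP5 under the replicate block, and from 487 to 1007 and from 622 to 1270 without 1 library. With DILP2 they numbered 508, 487, 523 and 651 without control replicate A, control replicate C, DILP2 replicate A and DILP2 replicate B. With DILP5 they numbered 622, 624, 759 and 629 without control replicate A, control replicate C, DILP5 replicate A and DILP5 replicate B. Directions turned without 1 library for *Act87E* with DILP2 (from -0.025 to 0.15), and for DILP5 over DILP2 for *Act5C* (from -0.025 to 0.035, at -0.0049, -0.016 and -0.025 where it turned) and *Act57B* (from -0.042 to 0.057, at 0.057 and 0.0091 where it turned), where neither was called. Other values that were not called moved over 1.5 times without 1 library. With DILP2 these were *Act79B* (from 0.078 to 0.37), *Act88F* (from 0.051 to 0.24) and *Act42A* (from 0.013 to 0.11). With DILP5 they were *Act79B* (from 0.24 to 0.54) and *Act87E* (from 0.10 to 0.20). For DILP5 over DILP2 they were *Act42A* (from 0.0030 to 0.0999), *Act87E* (from 0.011 to 0.18) and *Act88F* (from 0.053 to 0.25). The cause was not tested. Per kilobase of coding rather than exonic length each level moved, and *Act5C* passed above *Act42A*. The match of 50-base windows between members was not run, and the 6 actins summed to 1 row gave log2 fold changes of 0.12 and 0.14.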

Other observations

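The hemocyte markers held 2 called genes, both lower with each DILP, of 9 tested, where 5.59% (DILP2) and 6.78% (DILP5) of all genes tested were called lower. *srp*, the GATA factor of blood cell fate, fell by 0.30 (adjusted p = 0.00494) and 0.28 (adjusted p = 0.00507) on the log2 scale with DILP2 and DILP5 by edgeR's quasi-likelihood test. *ush*, its zinc-finger partner, had -0.27 (adjusted p = 0.00117) and -0.25 (adjusted p = 0.00173). The other 7 tested were not called, and they are named after their values were seen. Of these, *eater* (-0.53 and -0.59, standard errors 0.27 and 0.27) and *Hml* (-0.25 and -0.27, standard errors 0.20 and 0.20) had few counts. The receptor genes *Pvr* (-0.047 and -0.087) and *crq* (-0.044 and -0.061) changed less, as did *Pxn* (-0.030 and -0.089). The collagen genes *vkg* (0.11 and 0.046) and *Cg25C* (0.13 and 0.087) were above 0. The median over the 9 markers tested was -0.047 with DILP2 and -0.089 with DILP5.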
